A study of Mus musculus with 8 samples.

Results

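The cytosolic HSP70 chaperone system was examined in naive CD4+ T cells of the mouse through 10 genes, out of 24421 gene symbols counted in each library. The 10 are the stress-inducible HSP70 genes Hspa1a and Hspa1b, the constitutive HSP70 gene Hspa8, the HSP110 genes Hspa4 and Hsph1, the J-domain cochaperones Dnaja1 and Dnajb1, the small heat shock gene Hspb1 and the HSP90 genes Hsp90aa1 and Hsp90ab1. They were taken by symbol from a group chosen by its levels in E1KO and E1WT libraries, so the difference between the titles is given as a description, with no p-value, and edgeR's calls of these genes describe the fit and support nothing. All 10 were found and all 10 passed the filter on low counts.

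Libraries titled E1KO stand for mice with both Pcbp1 alleles floxed (Pcbp1fl/fl) and a Cre driven by Cd4. The gene encodes an RNA-binding protein known also as hnRNP E1. Cd4-Cre is active in developing T cells, before they part into CD4 and CD8 cells. Libraries titled E1WT stand for mice that one label names wild type and another Pcbp1+/+Cd4-Cre, so that the controls may carry the Cre too. All mice are given as C57BL/6 males of 6 to 8 weeks, and the cells came from spleen through a kit for naive T cells. There were 4 libraries of each title, read at 75 bp from both ends, and the labels do not say whether each came from a separate animal. The genotype field and the title contradict each other in 8 of 8 samples, and groups here follow the titles.

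HSP70 proteins hold unfolded segments of other proteins and release them as they bind and split ATP. J-domain proteins bring them clients and speed the splitting of ATP, and HSP110 proteins and BAG proteins make them let go of ADP. HSP90 takes over many clients, among them kinases of the T cell receptor pathway, from HSP70. Under heat or proteotoxic stress the transcription factor HSF1 binds repeats of the unit GAA and its complement in the promoters of these genes, and Hspa1a and Hspa1b are the textbook examples of genes that it switches on strongly.

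The promoters of the pair and of Hsph1 are shown because these 3 genes did not overlap between titles, and because the promoters of the pair are nearly the same. Each is the 250 bases before the annotated start, from RefSeq on GRCm38.p6, with GAANNTTC or TTCNNGAA in capitals. These 8-letter patterns are each their own reverse complement, so a match covers both strands, and matches of the 2 patterns may overlap.
Hspa1a, chr17:34972157-34972406, minus strand: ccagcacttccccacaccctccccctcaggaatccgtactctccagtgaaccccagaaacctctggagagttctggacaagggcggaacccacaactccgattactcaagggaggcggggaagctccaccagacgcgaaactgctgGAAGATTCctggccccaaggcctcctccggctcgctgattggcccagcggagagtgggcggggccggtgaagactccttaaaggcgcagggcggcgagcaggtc
Hspa1b, chr17:34959239-34959488, minus strand: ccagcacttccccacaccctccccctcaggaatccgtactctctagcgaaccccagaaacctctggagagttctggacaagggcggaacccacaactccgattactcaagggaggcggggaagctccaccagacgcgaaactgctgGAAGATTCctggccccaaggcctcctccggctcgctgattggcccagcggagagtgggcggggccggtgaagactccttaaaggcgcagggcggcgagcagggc
Hsph1, chr5:149636337-149636586, minus strand: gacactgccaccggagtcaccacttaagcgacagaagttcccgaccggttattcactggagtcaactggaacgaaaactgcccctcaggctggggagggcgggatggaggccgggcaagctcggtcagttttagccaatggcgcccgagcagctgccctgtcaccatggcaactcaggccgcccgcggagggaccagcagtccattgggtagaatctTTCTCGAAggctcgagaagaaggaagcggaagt
The Hspa1a and Hspa1b promoters were identical at 247 of 250 positions (98.8%), and each held 1 match, starting 104 bases before the start. The Hsph1 window shown held 1 match, 33 bases before its start. Of 32851 promoter windows in the table, 12.8% held such a match. Among the 7 members with an entry, the pattern was also found for Dnaja1 and Hspb1 and not in the windows of Dnajb1 and Hspa4. The longer pattern of 3 such units in a row, on either strand, was in 0.466% of windows and in none of the members' windows. The table was not matched for Hspa8, Hsp90aa1 and Hsp90ab1. A match describes letters and is not a measured binding site.

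Hspa1a (ENSMUSG00000091971.3) and Hspa1b (ENSMUSG00000090877.3) are intronless genes on the minus strand of chromosome 17, at 34969190 to 34972156 and at 34956436 to 34959238 on GRCm38. Their coding sequences were 99.43% identical, against 73.94% between Hspa1a and Hspa8. Of the 75-base windows of each transcript, 61.7% for Hspa1a and 55.8% for Hspa1b also occur in another annotated gene. A read that lies in such a window matches more than 1 gene, so the split of reads between Hspa1a and Hspa1b is uncertain. Reads aligned at more than 1 place were also counted apart, under no gene. They were 11.1% to 12.0% of all counts in E1KO and 12.6% to 13.2% in E1WT libraries, with no overlap. The counts of genes with shared windows may therefore be too low, and adding the pair's counts does not bring such reads back. The part of this difference between titles in the folds of such genes was not tested. Unshared windows numbered 1108 for Hspa1a and 1205 for Hspa1b. The windows of Hspa4, Hsph1 and Dnajb1 were shared with no other gene. The shared part was 68.6% for Hspa8, 57.7% for Hspb1, 53.1% for Hsp90aa1, 27.8% for Dnaja1 and 0.736% for Hsp90ab1, and their levels are uncertain to that extent. Hsp90ab1 lies on the same chromosome at 45567775 to 45573271 (minus strand), and Hsp90aa1 on chromosome 12 at 110690605 to 110702728 (minus). Hspa8 lies on chromosome 9 at 40800984 to 40810087 (plus) and Hspa4 on chromosome 11 at 53259814 to 53300457 (minus). Chromosome 5 holds Hsph1 at 149614287 to 149636376 (minus) and Hspb1 at 135887919 to 135889563 (plus). Dnaja1 lies on chromosome 4 at 40722150 to 40737149 (plus) and Dnajb1 on chromosome 8 at 83608193 to 83612653 (plus).

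Each library held 28264655 to 36738202 gene counts. The targeted gene Pcbp1 stood at 38.3 to 41.8 CPM in E1KO and at 203 to 243 CPM in E1WT libraries, so the lower level of Pcbp1 stood under the E1KO title. CPM here is a gene's count scaled to a common library total after TMM scaling, which corrects for differences in RNA composition between libraries. Naive CD4 markers were present in all libraries, with 8 genes summing to 5224 to 5381 CPM in E1KO and 5975 to 6058 CPM in E1WT. Xist, the RNA of the inactive X chromosome, stood at 397 CPM in E1KO and 1.51 CPM in E1WT libraries on average, and Ddx3y, a Y-linked gene, at 54.3 CPM in E1KO and 108 CPM in E1WT. Uty, Kdm5d and Eif2s3y, also Y-linked, had log2 folds of -0.98, -1.08 and -1.02. Every E1KO library thus held both Xist (365 to 425 CPM) and Ddx3y (52.0 to 57.5 CPM). Xist at that level is at odds with the label of males. The labels do not say whether a library pooled animals. The titles therefore also differ in sex-linked RNA, and the part of sex in any other value cannot be told apart from that of the title. In bulk RNA, fewer cells of a type and less RNA per cell cannot be told apart either.

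The stress-inducible pair was low in every E1KO library. Hspa1b stood at 10.3, 12.7, 11.9 and 11.2 CPM in E1KO libraries 1 to 4, against 45.0, 52.1, 46.3 and 37.7 CPM in E1WT libraries 1 to 4. Hspa1a stood at 2.01, 3.64, 3.23 and 3.41 CPM in E1KO, against 9.78, 12.4, 9.63 and 10.4 CPM in E1WT. For neither gene did the titles overlap. The log2 fold, E1KO over E1WT, was -1.98 ± 0.11 for Hspa1b and -1.78 ± 0.18 for Hspa1a (SE, n = 4 each). With the reads of both added into 1 count, the pair stood at 14.6 ± 1.70 CPM in E1KO and 55.8 ± 6.76 CPM in E1WT (SD, n = 4 each), and its log2 fold was -1.94 ± 0.11. Raw counts behind these levels were 373 to 417 for Hspa1b and 73 to 120 for Hspa1a in E1KO, against 1247 to 1896 for Hspa1b and 267 to 452 for Hspa1a in E1WT.

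The split of reads within the pair overlapped between titles. Hspa1a took 16.4%, 22.3%, 21.3% and 23.3% of the pair's reads in E1KO libraries 1 to 4. In E1WT libraries 1 to 4 it took 17.9%, 19.3%, 17.2% and 21.6%. The E1KO libraries lay on both sides of the E1WT range. For E1KO 1, the lowest, the exact 95% Clopper-Pearson interval was 13.1% to 20.1%, which covers counting error only. Per 1000 unshared windows Hspa1a reached 2.77 CPM and Hspa1b 9.56 CPM in E1KO, and 9.53 and 37.6 CPM in E1WT. Hspa1a thus also lay below Hspa1b by this measure. It divides all counted reads of a gene, wherever they lie, by its unshared windows. It is too high to the extent that counted reads came from shared windows.

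The constitutive HSP70, Hspa8, also called HSC70, overlapped between titles. It lay at 1814, 1685, 1635 and 1743 CPM in E1KO libraries and at 1783, 1700, 1779 and 1911 CPM in E1WT libraries. The ranges overlapped, and the log2 fold was -0.06 ± 0.06, or 0.0020 where libraries were scaled by their totals alone. Hspa8 reads were 103 to 148 times those of the pair in E1KO and 26.3 to 39.7 times in E1WT. The pair made up 0.315% of the CPM of all 10 genes in E1KO and 1.24% in E1WT, and the 10 together took 4446 to 4895 CPM in E1KO and 4359 to 4808 CPM in E1WT.

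**Figure D1:**
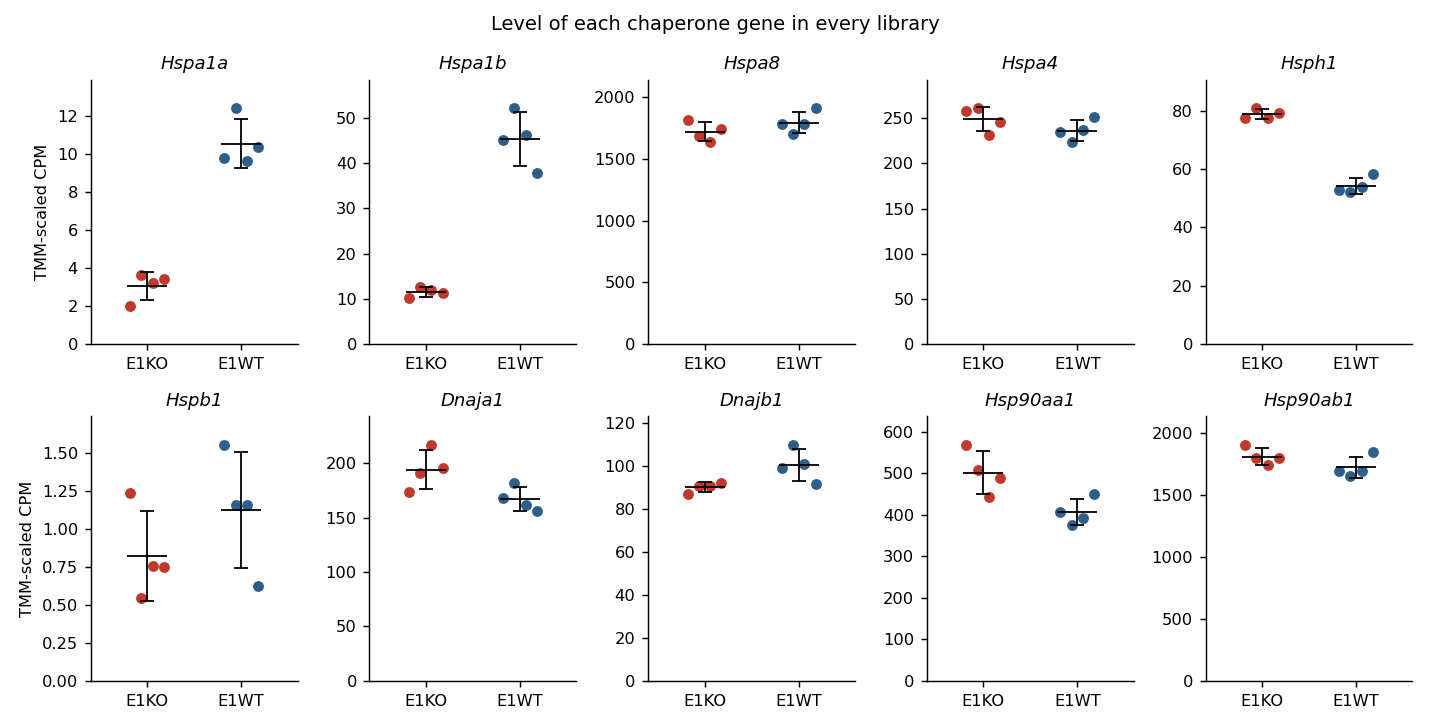
TMM-scaled CPM of the 10 genes, 1 point per library (E1KO left in red, E1WT right in blue), with the mean (horizontal line) and SD (bars) over 4 libraries and axes from 0. Hspa1a and Hspa1b lie lower and Hsph1 higher in every E1KO library, and the other 7 genes overlap.

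The HSP110 genes, which act as exchange factors for HSP70, differed from each other in their fold. Hsph1, also called HSP105, stood at 77.6, 80.8, 77.5 and 79.2 CPM in E1KO libraries 1 to 4, against 52.7, 52.1, 53.8 and 58.3 CPM in E1WT libraries 1 to 4. The titles did not overlap, and the log2 fold was 0.54 ± 0.06 (SE). Hspa4, its close relative at 63.38% coding identity, stood at 249 ± 13.5 CPM in E1KO and 236 ± 11.4 CPM in E1WT (SD, n = 4 each), with overlapping ranges and a log2 fold of 0.07 ± 0.06. Hsph1 reads were 4.96 to 6.33 times those of the pair in E1KO and 0.807 to 1.21 times in E1WT.

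The J-domain cochaperones showed small differences in opposite directions. Dnaja1 stood at 174, 191, 217 and 195 CPM in E1KO, against 168, 181, 162 and 156 CPM in E1WT. Only E1KO 1 fell within the E1WT range, and the log2 fold was 0.22 ± 0.07 (SE). Dnajb1, the main cytosolic J-domain partner induced by heat, stood at 86.8, 90.7, 90.7 and 91.8 CPM in E1KO, against 99.0, 110, 101 and 91.3 CPM in E1WT. E1WT 4 fell within the E1KO range, and the log2 fold was -0.15 ± 0.06. The ratio of Dnajb1 to Dnaja1 reads was 0.418 to 0.4997 in E1KO and 0.584 to 0.622 in E1WT, with no overlap.

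Of the HSP90 genes, the inducible form Hsp90aa1 was higher in E1KO libraries and the constitutive form Hsp90ab1 overlapped between titles. Hsp90aa1 stood at 569, 508, 442 and 489 CPM in E1KO, against 408, 377, 393 and 451 CPM in E1WT. The ranges overlapped through E1KO 3 and E1WT 4, and the log2 fold was 0.30 ± 0.08 (SE). Hsp90ab1 stood at 1807 ± 69.3 CPM in E1KO and 1720 ± 83.6 CPM in E1WT (SD, n = 4 each), with a log2 fold of 0.07 ± 0.06. Hsp90ab1 reads were 3.34 to 3.92 times those of Hsp90aa1 in E1KO and 4.08 to 4.38 times in E1WT, with no overlap. Hspb1, the small heat shock protein HSP27 in human and HSP25 in mouse, was near the lower limit of what was counted. It held 18 to 45 raw counts in E1KO and 22 to 43 in E1WT libraries, and its log2 fold was -0.43 ± 0.36.

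**Figure D2:**
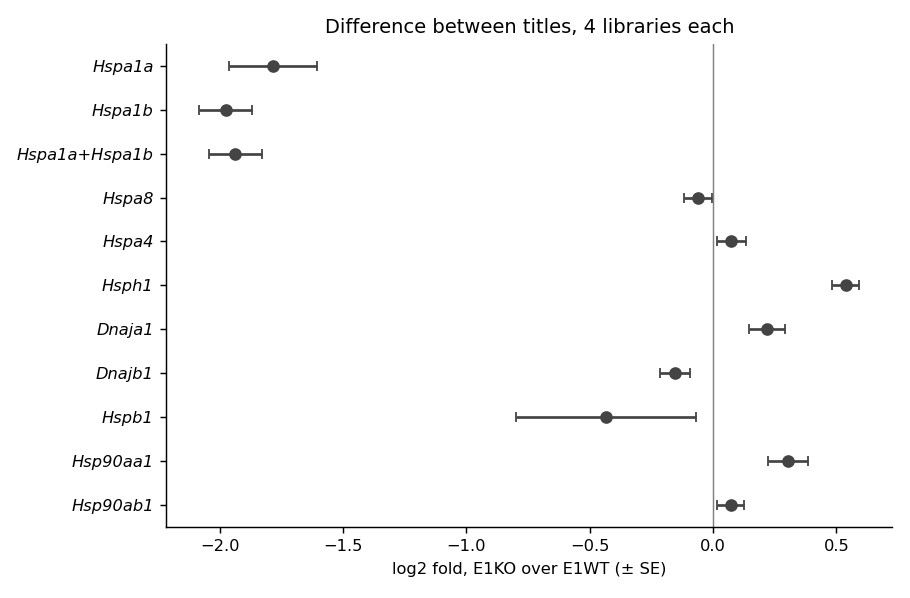
Log2 fold of E1KO over E1WT with its SE for the 10 genes and for the summed Hspa1a and Hspa1b counts, from 4 libraries of each title. The pair lies near -1.9, Hsph1 at 0.54 and Hsp90aa1 at 0.30, and Hspa8, Hspa4 and Hsp90ab1 lie between -0.06 and 0.07.

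Across the 10 genes 2 were called higher and 2 lower by the edgeR quasi-likelihood test at an adjusted p below 0.05, where 23.3% of the 13333 genes tested were called, 12.2% higher and 11.1% lower. The titles did not overlap for 1 member with E1KO above and 2 with E1KO below, where 26% of all tested genes did not overlap, 14% with E1KO above and 12.1% with E1KO below. Nothing is read from these shares, since the genes were chosen with this difference known. The median log2 fold of the members was 0.01, against 0.01 over all tested genes. With library totals alone the calls over all genes split into 2257 higher and 1046 lower, against 1623 and 1485 with TMM scaling. Likewise as a description, Hsp90aa1, 1 of the 4 called, was not called without E1KO 2, E1WT 1 or E1WT 3, at log2 folds of 0.30, 0.30 and 0.28. Dnaja1 became called without E1KO 1 (0.27) or E1WT 2 (0.26), and Dnajb1 without E1WT 4 (-0.20).

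Levels were compared between genes per kb of the principal transcript. In E1KO libraries Hspa8 and Hsp90ab1 led, at 718 ± 32.2 and 717 ± 27.5 CPM per kb (SD, n = 4), and did not differ beyond their spread. Hsp90aa1 followed at 153 ± 16.02, Dnaja1 at 57.5 ± 5.25 and Hspa4 at 53.9 ± 2.92 CPM per kb, the last 2 overlapping. Dnajb1 lay at 30.0 ± 0.722, Hsph1 at 20.7 ± 0.413 and Hspa1b at 4.11 ± 0.366 CPM per kb. Hspa1a (1.04 ± 0.246) and Hspb1 (0.910 ± 0.325) were lowest and overlapped. In E1WT libraries Hspa1b, at 16.2 ± 2.11 CPM per kb, overlapped Hsph1, at 14.3 ± 0.746, and Hspa1a, at 3.56 ± 0.435, lay above Hspb1, at 1.24 ± 0.422, without overlap. Per 1000 unshared windows most of these genes lay farther apart. As that measure takes all counted reads of a gene, it raises genes with a larger shared part, such as Hspa8, the more. In E1KO, Hspa8 then reached 2358 CPM and Hsp90ab1 744 CPM, and Dnaja1 81.4 CPM and Hspa4 54.8 CPM, while Hspa1a, at 2.77 CPM, and Hspb1, at 2.34 CPM, stayed close. In E1WT, Hspa1b reached 37.6 CPM and Hsph1 14.5 CPM, and Hspa8 2460 CPM and Hsp90ab1 708 CPM.

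A measure that the difference between titles does not enter is how the genes varied among libraries of 1 title. The SD of log2 level within titles was 0.06 for Hsph1 and for Hsp90ab1, 0.07 for Hspa8 and Hspa4, and 0.08 for Dnajb1, against a median of 0.15 over all tested genes. Dnaja1 lay at 0.11, Hsp90aa1 at 0.13 and Hspa1b at 0.16, close to that median. Hspa1a lay at 0.26 and Hspb1, the gene with the fewest reads, at 0.33. The pair thus varied more within titles than Hspa8, Hspa4 and Hsp90ab1 did, and it also had fewer reads.

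The libraries at the ends of each title differed across several genes at once. In E1WT 4, Hsp90aa1, Hsp90ab1, Hspa8, Hspa4 and Hsph1 lay 0.15, 0.10, 0.09, 0.09 and 0.11 above the title mean on the log2 scale. In the same library Hspa1b, Dnajb1 and Dnaja1 lay at -0.25, -0.13 and -0.09. E1WT 2 lay on the other side for each of these 8 genes, with Hspa1b at 0.21, Dnajb1 at 0.13, Dnaja1 at 0.12 and Hsp90aa1 at -0.11. In E1KO 1, Hsp90aa1 lay at 0.19 and Hspa8 at 0.08, with Hspa1a at -0.49, Hspa1b at -0.16 and Dnaja1 at -0.15. E1KO 3 had Hsp90aa1 at -0.18 and Dnaja1 at 0.16. Reads given to no gene were 37.0% of all counts in E1WT 4 and 33.3% in E1WT 2, the highest and lowest of that title, and 30.8% in E1KO 1 and 28.2% in E1KO 3, likewise the ends of theirs. The part of that share in these values was not tested.

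**Figure D3:**
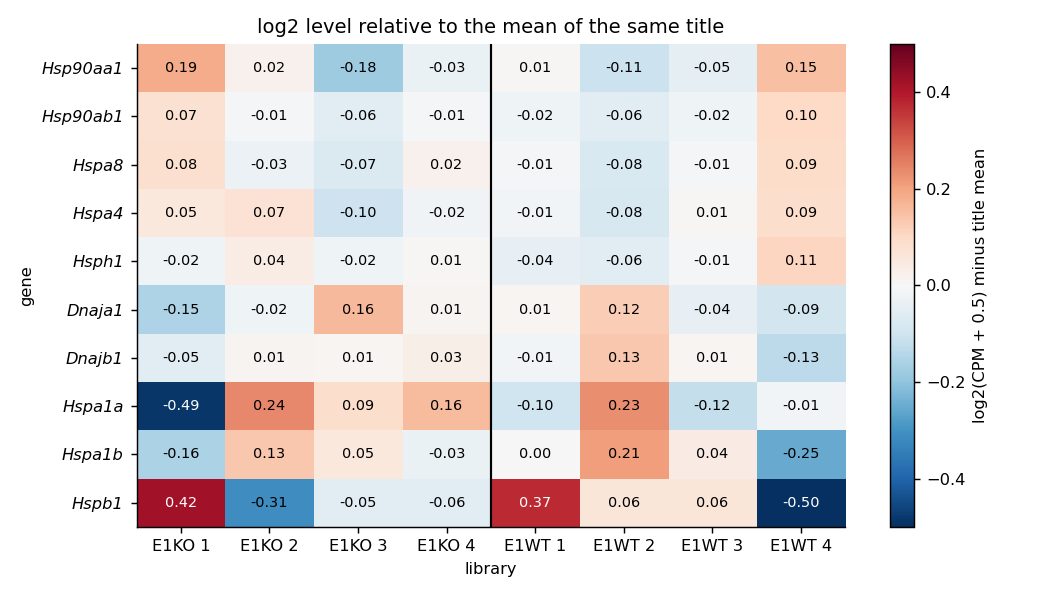
Log2(CPM + 0.5) of each gene minus the mean of the 4 libraries of the same title, per library (columns, E1KO left of the line) and gene (rows). E1WT 4 and E1KO 1 show Hsp90aa1, Hsp90ab1, Hspa8 and Hspa4 above and Hspa1b, Dnajb1 and Dnaja1 below their title means, and E1WT 2 shows the reverse.

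Genes outside the members were compared for likeness to the summed pair by the root mean square difference of centred log2 levels over the 8 libraries, among 9094 genes with a mean log2 level of at least 3. The nearest was Palm3, of the paralemmin family, at 0.15, followed by H2-Q5, a nonclassical class I gene of the major histocompatibility complex, at 0.17, and Plekhn1 at 0.20. Dgka, a diacylglycerol kinase, and Pmel, which overlaps it on chromosome 10, followed at 0.29 and 0.30. All 5 were lower in E1KO, as their likeness to the pair requires, with log2 folds of -1.95 (Palm3), -2.21 (H2-Q5), -1.67 (Plekhn1), -1.37 (Dgka) and -2.10 (Pmel). None is in the chaperone lists. H2-Q5 has close relatives in its family and Dgka and Pmel overlap on opposite strands, so the counts of these 3 may hold each other's or relatives' reads. Among the members themselves, Hspa4 and Hsp90ab1 were nearest to each other, at 0.04.

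The pair lies within the major histocompatibility complex on chromosome 17, and its neighbours were listed after the values of the pair were known. Hspa1l, an HSP70 gene read on the other strand, begins 547 bases beyond the annotated start of Hspa1a. It stood at 1.76 to 3.85 CPM in E1KO and 1.91 to 2.83 CPM in E1WT libraries, with a log2 fold of 0.26 ± 0.25 (SE) and an edgeR adjusted p of 0.50. Of 14 tested neighbours within 100 kb, 1 rose and 2 fell, or 21.4%, against the 23.3% called over all genes. Ehmt2, a histone H3 methyltransferase, fell to 137 CPM in E1KO, against 252 CPM in E1WT (log2 fold -0.88 ± 0.05), and Msh5, a meiotic MutS homologue, fell to 1.81 CPM in E1KO, against 3.49 CPM in E1WT (-0.95 ± 0.17). The gene that rose was 1110038B12Rik, with a log2 fold of 0.72 ± 0.22 (edgeR adjusted p = 0.036). Its ranges overlapped between titles, at 6.93 to 14.0 CPM in E1KO and 5.27 to 9.07 CPM in E1WT. It lies between Ehmt2 and the pair, as does Neu1 (-0.04 ± 0.10), which was not called, and Vars (0.07 ± 0.05), between the pair and Msh5, was not called either. No neighbour within 100 kb had a difference as large as that of the pair.

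**Figure D4:**
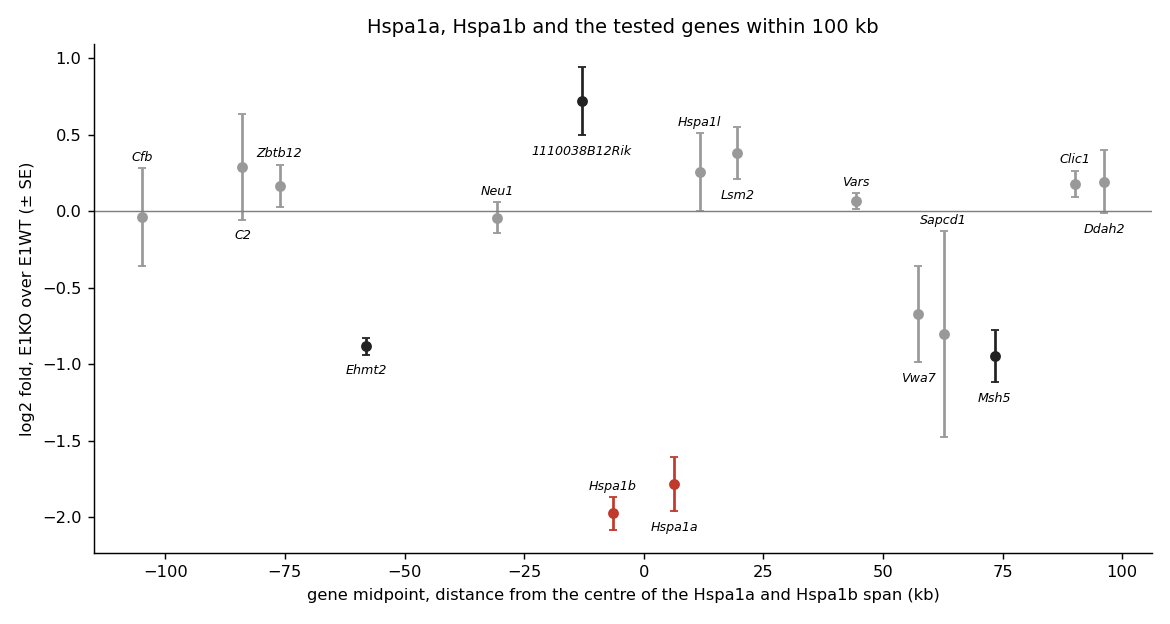
Log2 fold of E1KO over E1WT with its SE for Hspa1a and Hspa1b (red) and 14 tested genes within 100 kb, by distance of the gene's midpoint from the centre of the pair's span in kb. Black points were called by edgeR and grey ones were not. The pair stands near -1.9, with Hspa1l and Lsm2 beside it above 0.

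The wider chaperone network was covered by 9 lists with 115 genes, of which 106 were tested. In edgeR 15 rose and 5 fell, or 18.9%, against 23.3% of all genes tested, with a median log2 fold of 0.04 against 0.01. With the replicate number as a block 8 rose, and without E1KO 4 also 8. With library totals alone 22 rose and 4 fell. The lists were drawn up with earlier results of these libraries known.

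Of 15 other genes that HSF1 can induce, 2 rose, 1 fell and 12 were not called, or 20% called against 23.3% of all genes, with a median log2 fold of 0.01. The gene that fell was Dnaja4, a J-domain cochaperone, which stood at 8.32 to 9.74 CPM in E1KO and 17.7 to 21.9 CPM in E1WT libraries (log2 fold -1.09 ± 0.10 SE, edgeR adjusted p = 2.3e-05). Those that rose were Hspd1, the mitochondrial chaperonin HSP60, at 0.35 ± 0.06, and Stip1, at 0.18 ± 0.06. Bag3, often used as a marker of HSF1 activity, stood at 11.8 to 14.9 CPM in E1KO and 12.8 to 14.0 CPM in E1WT (-0.02 ± 0.09). Hspe1, which shares a two-way promoter with Hspd1, had a log2 fold of -0.07 ± 0.06. Both, like Hspa1l, Neu1 and Vars, were named after their values were seen.

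Among the heat shock factors 0 of 4 tested genes were called by edgeR in either direction, with 1 higher and 1 lower at an unadjusted p below 0.05 and 1 lower in DESeq2. Hsf1 itself stood at 35.1 to 49.9 CPM in E1KO and 43.1 to 53.0 CPM in E1WT libraries, with a log2 fold of -0.29 ± 0.11 (edgeR adjusted p = 0.074). Without E1KO 3 or E1WT 4 Hsf1 passed, at -0.40 and -0.35 (edgeR adjusted p = 0.0072 and 0.038). Small heat shock proteins outside Hspb1 had 3 tested genes and 0 calls in edgeR, 0 at an unadjusted p below 0.05 and 0 in DESeq2, and Hspb11, a protein of intraflagellar transport with the smallest p, stood at -0.18 ± 0.14 (edgeR adjusted p = 0.39).

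Of the HSP70 and HSP110 relatives in the cytosol 0 of 6 were called by edgeR, with 1 higher and 0 lower at an unadjusted p below 0.05 and 0 in DESeq2. The nearest was Hspa2, a testis-enriched HSP70, at 3.02 ± 0.63 CPM in E1KO and 2.03 ± 0.44 CPM in E1WT (edgeR adjusted p = 0.092). Of 8 chaperones of the endoplasmic reticulum and mitochondria 2 rose and 0 fell, or 25% called against 23.3% of all genes. At an unadjusted p below 0.05 there were 3 and 2, and in DESeq2 2 and 0. Beside Hspd1 the other was Hspa13, a microsomal HSP70, at 29.3 ± 2.80 CPM in E1KO and 23.0 ± 0.77 CPM in E1WT (SD, n = 4 each; log2 fold 0.35 ± 0.08, edgeR adjusted p = 0.0098).

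J-domain cochaperones outside the members rose in 3 and fell in 3 of 36 cases, or 16.7% called against 23.3% of all genes. At an unadjusted p below 0.05 there were 7 higher and 4 lower, and in DESeq2 5 and 3. Beside Dnaja4, Dnajc3, a cochaperone in the endoplasmic reticulum, fell by 0.29 ± 0.07 on the log2 scale (edgeR adjusted p = 0.011). Dnajc6, or auxilin, which strips clathrin from vesicles with HSP70, rose by 0.56 ± 0.13 (edgeR adjusted p = 0.011), with overlapping ranges. The others called, named after their values were seen, were Dnaja2 (0.20 ± 0.06) and Dnajc7 (0.23 ± 0.07), which rose, and Dnajc1 (-0.23 ± 0.07), which fell. The ranges of Dnajc7 overlapped between titles. Of 13 exchange factors and adaptors 3 rose and 0 fell, or 23.1% called against 23.3% of all genes. At an unadjusted p below 0.05 there were 4 and 0, and in DESeq2 3 and 0. Bag2, an inhibitor of the ubiquitin ligase CHIP, stood at 3.46 to 4.85 CPM in E1KO and 1.66 to 2.44 CPM in E1WT (log2 fold 1.07 ± 0.19, edgeR adjusted p = 0.0020). Bag1, an exchange factor, rose by 0.30 ± 0.06 (edgeR adjusted p = 0.0033). Stip1, the HOP protein that joins HSP70 to HSP90, rose by 0.18 ± 0.06 (edgeR adjusted p = 0.035). Leaving out any 1 of 5 libraries, namely E1KO 1 or 4 or E1WT 1, 2 or 3, ended its call, with edgeR adjusted p values of 0.073 to 0.098.

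HSP90 cochaperones rose in 2 and fell in 2 of 18 cases, or 22.2% called against 23.3% of all genes. At an unadjusted p below 0.05 there were 5 higher and 2 lower, and in DESeq2 2 and 2. Cdc37l1, a relative of Cdc37, stood at 95.1 ± 5.67 CPM in E1KO and 143 ± 16.2 CPM in E1WT (SD, n = 4 each; log2 fold -0.58 ± 0.08, edgeR adjusted p = 0.00039). Cdc37, which delivers kinases to HSP90, fell by 0.28 ± 0.06, and Fkbp5, an immunophilin induced by glucocorticoids, rose by 0.29 ± 0.05 (edgeR adjusted p = 0.0044 and 0.0022). Tomm34, named after its value was seen, rose by 0.25 ± 0.07. The cytosolic chaperonin and prefoldin list had 5 of 14 higher (35.7%, against 12.2% of all genes) and 0 lower, with 5 and 0 at an unadjusted p below 0.05 and in DESeq2. All 5 belong to the chaperonin ring that folds actin and tubulin, with Cct6a at 0.28 ± 0.05, Cct3 at 0.21 ± 0.05 and Tcp1 at 0.20 ± 0.05. The other two, named after their values were seen, were Cct8 at 0.21 ± 0.06 and Cct2 at 0.20 ± 0.05. Without E1KO 2, without E1KO 4 or without E1WT 1, Tcp1 was not called (edgeR adjusted p = 0.054 to 0.061). Without E1KO 4, and likewise with the replicate number as a block, only Cct3 and Cct6a of these 5 kept their calls.

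**Figure D5:**
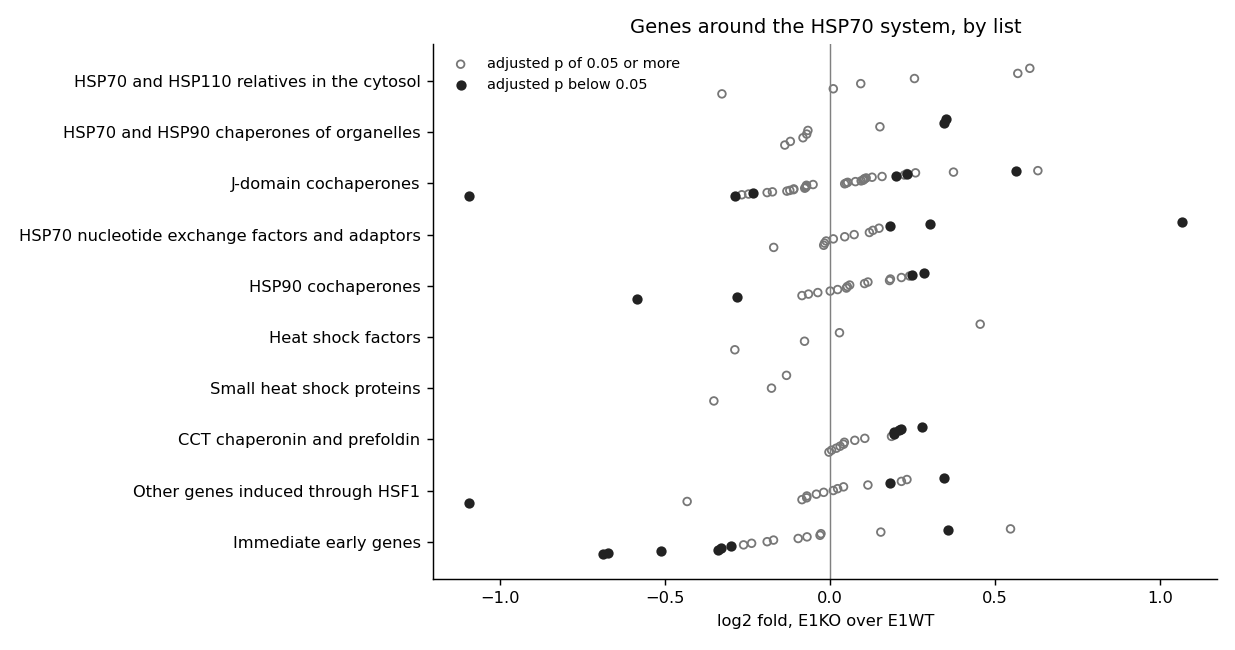
Log2 fold of E1KO over E1WT for every tested gene of the fixed lists, 1 point per gene, filled where the edgeR adjusted p was below 0.05. Dnaja4 at -1.09 and Bag2 at 1.07 lie farthest out, and the 5 called genes of the chaperonin list lie between 0.20 and 0.28.

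Immediate early genes, which like Hspa1a and Hspa1b can be induced while tissue is taken apart, were lower in E1KO libraries in 6 of 17 tested cases and higher in 1, which was Nr4a1 (0.36 ± 0.10), named after its value was seen. That is 41.2% called, where 23.3% of all genes were, 11.1% lower and 12.2% higher. Jun stood at 12.6 to 17.1 CPM in E1KO and 19.0 to 25.6 CPM in E1WT, Egr3 at 38.5 to 42.5 CPM in E1KO and 55.2 to 60.1 CPM in E1WT, and Egr1 at 79.6 to 89.6 CPM in E1KO and 103 to 112 CPM in E1WT. The median log2 fold of the list was -0.19. Markers of other cells differed in some lists and overlapped in others. Monocyte and macrophage markers (5 of 6 higher, 1 lower) summed to 83.5 to 96.9 CPM in E1KO and 38.0 to 45.1 CPM in E1WT. Dendritic cell markers (6 of 6 higher) summed to 27.4 to 33.0 CPM in E1KO and 13.4 to 17.6 CPM in E1WT, and plasma cell markers (1 of 4 higher) to 739 to 940 CPM in E1KO and 488 to 697 CPM in E1WT. Most of the plasma cell sum was Jchain, at 685 to 879 CPM in E1KO and 439 to 641 CPM in E1WT, and Mzb1, Sdc1 and Prdm1 were not called. Erythroid markers (3 of 5 tested higher) summed to 104 to 135 CPM in E1KO and 39.0 to 51.7 CPM in E1WT, most of it Car1, at 85.0 to 116 CPM in E1KO and 28.9 to 43.2 CPM in E1WT, while Alas2 was not called (-0.75 ± 0.35) and Hba-a1 was at 0 in all libraries. B cell markers (1 of 6 higher) summed to 181 to 194 CPM in E1KO and 162 to 190 CPM in E1WT, and CD8 markers (1 of 2 lower) to 20.3 to 27.9 CPM in E1KO and 25.4 to 31.0 CPM in E1WT. NK cell markers (1 of 4 tested higher, Klra8 at 0) summed to 68.6 to 75.5 CPM in E1KO and 72.2 to 82.3 CPM in E1WT, and neutrophil markers (1 higher and 1 lower of 4) to 36.3 to 42.2 CPM in E1KO and 34.7 to 37.3 CPM in E1WT. The part of these genes and cells in the chaperone values was not tested.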

How the data were processed

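RNA of naive CD4+ T cells from 8 samples, 4 titled E1KO and 4 titled E1WT, was analysed from raw counts. The deposited count files hold 1 whole number per gene symbol and library, and per the submitters' processing notes TopHat2 2.1.0, HTSeq 0.9.1 and the build mm10 were used. For the annotation and the strand setting, the sources used here give nothing. Another 5 rows for reads given to no gene were left out. They took 28.2% to 30.8% of counts in E1KO and 33.3% to 37.0% in E1WT libraries, with no overlap.

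The main test was edgeR 4.0.16 under R 4.3.3 (TMM scaling, default filter with a count minimum of 10 and a total minimum of 15, quasi-likelihood test, Benjamini-Hochberg adjustment over 13333 genes at 0.05). SEs derive from the F statistic. Log2 levels used a pseudocount of 0.5 CPM. The test was checked on simulated counts. No 2 libraries of a title agreed within sampling noise (chi-square per degree of freedom 4.20 to 64.4). Since separate animals are not stated, p-values reflect only library-to-library spread, possibly technical.

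Lengths, positions and shared windows come from GENCODE M21 on GRCm38, with the longest well-supported principal transcript per member. Promoter patterns were counted in Python 3.11.15. Members and lists were chosen with earlier results of these data known. Named genes are the members, Pcbp1, up to 3 called genes with the smallest p per list (where none was called, the 1 of smallest p) and the 5 genes most like the pair. Others are said to be named after their values were seen, which also holds for Ddx3y, Xist and the marker and neighbour genes. Alternatives were DESeq2 size factors, no filter, the DESeq2 1.42.0 test, a replicate block, each library left out and, chosen after the data were seen, library totals alone.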

Additional observations from a re-analysis of the deposited data

How the results depend on the processing

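The log2 fold of the summed pair, a description of the difference that chose the genes, ranged over 13 alternatives from -2.00 to -1.86. Hspa8 changed sign with library totals alone (0.0020), and that scaling put the median log2 fold of all genes at 0.07, against 0.01 with TMM scaling. The number of other chaperone genes called higher, 15, was 8 with the replicate block, 8 to 17 with a library left out and 22 with library totals alone. The replicate numbers did not pair the samples (correlations of same-numbered libraries -0.17 to -7.3e-05), and under the block 1151 genes were higher and 1005 lower, with the pair at -1.94. DESeq2 called Dnaja1, Dnajb1 and Hsf1 as well. Stip1 also lost its call with DESeq2 size factors, no filter or the block, and Tcp1 with the block. Under the block, and likewise without E1KO 4, the 8 called higher were Hspd1, Hspa13, Dnajc6, Bag1, Bag2, Fkbp5, Cct3 and Cct6a. Cct2, Cct8, Dnaja2, Dnajc7 and Tomm34 thus lost their calls in both settings. Depth limits Hspb1, with 18 to 45 counts per library.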

Other observations

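In wider windows around the pair, which include the neighbours within 100 kb, 55 genes within 500 kb were tested. Of these, 2 were called higher and 12 lower in E1KO libraries by edgeR (25.5%, median log2 fold -0.11). Within 1000 kb there were 98, with 8 higher and 20 lower (28.6%, median -0.09). Over all genes 23.3% were called, 12.2% higher and 11.1% lower. Both windows thus held more genes called lower than higher, unlike all genes together. H2-Q5, one of the genes whose profile was most like that of the pair, lies within 500 kb of it, at 35394126 to 35397800 on chromosome 17. The other 4 of those 5 genes lie on chromosomes 4, 8 and 10. These values were looked at after those of the pair were known, and no cause was tested.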
